A study of Mus musculus with 5 samples.

Results

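Genes of cytotoxic lymphocytes and natural killer (NK) cells were followed in the right hemisphere of glioma-bearing mice with and without ultrasound-mediated blood-brain barrier opening (UMBO). The group held 10 genes, taken by mouse symbol: the granzymes Gzma, Gzmb and Gzmk, the granule proteins Prf1 and Nkg7, the receptors Klrk1, Ncr1 and Klrb1c, and the effectors Ifng and Fasl. Each symbol matched an Ensembl identifier in the count tables, which list 55573 genes, and all 10 genes had counts in every library. UMBO combines low-intensity pulsed ultrasound with intravenous microbubbles to open the barrier for a limited time. All mice were C57BL/6 females that carried GL261 cells, a mouse glioma line transduced here with a luciferase/mKate2 vector, implanted in the right caudate nucleus-putamen at an age of 7 to 8 weeks. The vehicle group (3 libraries) received inVivoPure pH 6.5 Dilution Buffer and the UMBO group (2 libraries) received UMBO, on days 21 and 24, and the tissue was taken 24 h after the second session. Each library came from a different mouse. The paper describes 6 mice while the deposited record describes 5, and no further UMBO library was analysed here. Tumor, surrounding brain and infiltrating cells were sequenced together, GL261 is a single cell line, and whether vessels were flushed of blood is not given in the sources used here.

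Cytotoxic T lymphocytes and NK cells kill by releasing granules that hold perforin, which opens the membrane of the target cell, and granzymes, serine proteases that enter through it. NK cells decide whether to attack by weighing activating and inhibitory receptors, and both cell types can also kill through Fas ligand and secrete interferon-γ, which activates macrophages and raises antigen presentation. In glioma such cells are a small part of the infiltrate, in which microglia and macrophages prevail.

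Library totals ranged from 59736771 to 86164159 counts. Values are given as counts, or as CPM, counts scaled to the library size after TMM correction, in which 1 count was worth 0.0117 to 0.0153 CPM. Of 23592 genes tested with edgeR's quasi-likelihood test, 0 passed an adjusted p of 0.05, 1251 higher and 487 lower genes had an unadjusted p under 0.05, and 42 genes passed with DESeq2. UMBO replicate 2 stood apart from the other 4 libraries. On the first principal component, which held 78.7% of the variance, it lay at 133.7, while the others lay between -68.4 and 17.0 and vehicle replicate 2 was the nearest to it. Results are therefore also given without UMBO replicate 2. With 3 against 2 libraries an exact permutation test cannot give a p below 0.1.

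The sequences just before the transcription start are shown for 4 members that the results turn on and for 2 neighbouring granzymes of Gzmb. They are from RefSeq on GRCm38.p6, 250 bases each, from 5′ to 3′ on the strand of the gene. All 10 members matched an entry. Capitals mark AGGTGT (the T-box motif) and TGTGGT (the RUNX motif), searched on both strands and counted also where matches overlap, so a match on the opposite strand reads ACACCT or ACCACA.
Gzma, chr13:113100982-113101231, minus strand: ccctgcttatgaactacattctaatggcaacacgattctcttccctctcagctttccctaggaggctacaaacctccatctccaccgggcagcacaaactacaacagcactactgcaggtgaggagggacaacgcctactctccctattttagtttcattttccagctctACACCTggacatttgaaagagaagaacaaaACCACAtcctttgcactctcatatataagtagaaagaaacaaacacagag
Gzmb, chr14:56262335-56262584, minus strand: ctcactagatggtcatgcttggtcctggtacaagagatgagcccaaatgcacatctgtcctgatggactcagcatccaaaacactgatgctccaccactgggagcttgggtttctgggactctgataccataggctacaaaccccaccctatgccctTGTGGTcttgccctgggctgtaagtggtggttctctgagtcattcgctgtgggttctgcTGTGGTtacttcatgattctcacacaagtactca
Prf1, chr10:61297586-61297835, plus strand: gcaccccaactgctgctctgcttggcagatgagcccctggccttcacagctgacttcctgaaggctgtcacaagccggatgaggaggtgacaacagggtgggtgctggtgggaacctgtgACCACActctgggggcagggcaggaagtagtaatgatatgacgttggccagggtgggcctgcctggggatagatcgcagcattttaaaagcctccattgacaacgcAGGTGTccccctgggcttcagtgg
Ncr1, chr7:4337474-4337723, plus strand: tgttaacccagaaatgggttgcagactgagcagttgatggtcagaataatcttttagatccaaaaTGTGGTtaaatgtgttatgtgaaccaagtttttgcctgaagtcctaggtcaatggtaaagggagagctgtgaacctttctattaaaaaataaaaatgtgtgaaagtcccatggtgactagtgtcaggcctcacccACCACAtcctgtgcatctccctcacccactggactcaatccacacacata
Gzmd, chr14:56132594-56132843, minus strand: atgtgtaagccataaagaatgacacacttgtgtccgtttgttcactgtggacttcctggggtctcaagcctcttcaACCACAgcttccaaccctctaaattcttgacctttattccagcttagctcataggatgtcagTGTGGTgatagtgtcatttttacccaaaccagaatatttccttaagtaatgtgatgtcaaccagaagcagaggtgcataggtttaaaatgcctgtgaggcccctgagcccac
Gzmf, chr14:56211408-56211657, minus strand: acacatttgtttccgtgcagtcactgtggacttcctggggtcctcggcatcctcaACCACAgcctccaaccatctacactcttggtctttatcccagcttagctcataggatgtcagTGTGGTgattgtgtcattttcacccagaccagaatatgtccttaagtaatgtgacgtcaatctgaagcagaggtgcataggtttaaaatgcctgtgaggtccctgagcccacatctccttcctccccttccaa

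The RUNX motif occurred in the window of 7 of the 10 members (Gzma, Gzmb, Prf1, Nkg7, Klrk1, Ncr1 and Klrb1c), and in 14.05% of all 32851 promoters of that length. The T-box motif occurred in 4 members (Gzma, Gzmk, Prf1 and Nkg7), against 11.8% of all promoters. The last motif searched, TTCNNNGAA (the STAT motif, which reads the same on both strands), occurred in Nkg7 and Ifng and in 7.02% of all promoters. Gzmd and Gzmf each had the RUNX motif at 2 places, as did Gzmb. The 250 bases of Gzmd were nevertheless unlike those of Gzmb, with 44.98% identity over the aligned length, while pairs among Gzmc, Gzmd, Gzme, Gzmf and Gzmg reached 70.2% to 94.8%. These matches describe letters and not bound sites.

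Together the 10 genes were rare and their sum differed between libraries by more than an order of magnitude. Their CPM summed to 3.76, 15.1 and 7.48 for vehicle replicates 1, 2 and 3, and to 8.62 and 51.1 for UMBO replicates 1 and 2. UMBO replicate 2 was thus far above all other libraries, while UMBO replicate 1 lay between vehicle replicates 3 and 2. Gzma made up 16.0%, 28.7% and 19.7% of this sum with vehicle, against 23.7% and 50.3% with UMBO. In RNA of a whole tissue, more cells of a type and more RNA per cell cannot be told apart.

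**Figure D1:**
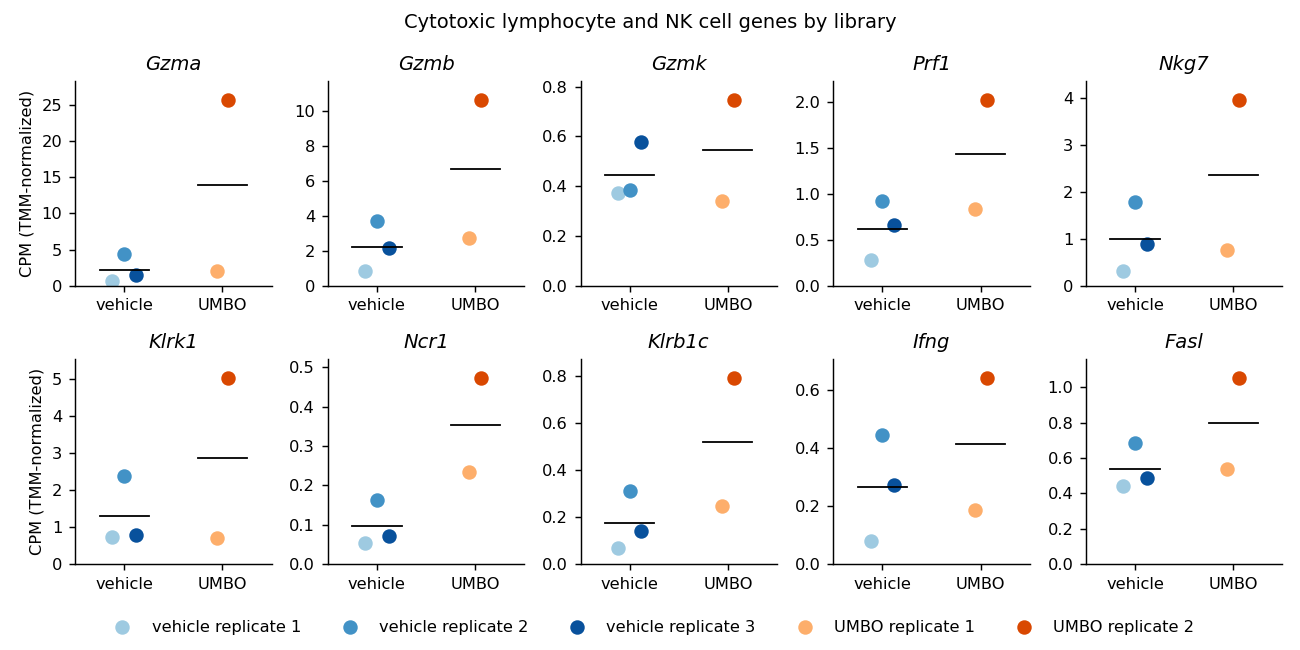
CPM of each of the 10 genes (vertical axes from 0, a separate scale for each gene) in the 3 vehicle libraries (blue) and the 2 UMBO libraries (orange); points are libraries and black lines are group means. UMBO replicate 2 is the highest point in all 10 panels, and both UMBO points lie above every vehicle point only for Ncr1.

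Gzma (ENSMUSG00000023132, chr13:113093825-113100981, minus strand, GRCm38) encodes granzyme A, a trypsin-like granule protease. It had 45, 293 and 125 counts in vehicle replicates 1, 2 and 3, and 175 and 1686 counts in UMBO replicates 1 and 2. On the CPM scale this was 0.602, 4.35 and 1.48 against 2.05 and 25.7. UMBO replicate 2 stood 5.92 times above the highest vehicle library, whereas UMBO replicate 1 was at 0.471 times that library, so the groups overlapped. The mean was 2.14 ± 1.96 CPM with vehicle (SD, n = 3) and 13.9 ± 16.8 CPM with UMBO (SD, n = 2). The log2 fold change was 2.68 with a standard error of 1.15, both the largest among the 10 genes, and the edgeR adjusted p was 0.497.

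Gzmb (ENSMUSG00000015437, chr14:56258838-56262260, minus strand) encodes granzyme B, which cleaves and activates caspases in the target cell. It had 61, 250 and 181 counts with vehicle, and 233 and 699 counts with UMBO. UMBO replicate 1 again fell between vehicle replicates 3 and 2, and UMBO replicate 2 was 2.88 times above the highest vehicle library. In CPM the means were 2.22 ± 1.45 (SD, n = 3) and 6.70 ± 5.62 (SD, n = 2). For Gzmb the log2 fold change was 1.58 (SE 0.767, edgeR adjusted p = 0.497).

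Gzmk (ENSMUSG00000042385, chr13:113171608-113225908, minus strand) encodes granzyme K and lies near Gzma on chromosome 13. Its counts were 28, 26 and 49 with vehicle, and 29 and 49 with UMBO. In contrast to Gzma, this gene varied less, with 0.374, 0.386 and 0.579 CPM under vehicle and 0.339 and 0.748 CPM under UMBO. UMBO replicate 1 was the lowest library. The log2 fold change of 0.26 was within its standard error of 0.457 (edgeR adjusted p = 0.764).

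Prf1 (ENSMUSG00000037202, chr10:61297833-61304680, plus strand) encodes perforin, the pore-forming protein. It had 21, 62 and 56 counts with vehicle, and 72 and 133 counts with UMBO. UMBO replicate 1 was at 0.842 CPM, close to the 0.920 CPM of vehicle replicate 2, and above the other vehicle libraries at 0.281 and 0.661 CPM. Its log2 fold change came to 1.18 (SE 0.596, edgeR adjusted p = 0.497).

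Nkg7 (ENSMUSG00000004612, chr7:43437073-43438249, plus strand) encodes a granule membrane protein needed for degranulation. Its counts were 23, 121 and 75 with vehicle, and 66 and 260 with UMBO, or 0.308, 1.79 and 0.886 CPM against 0.772 and 3.97 CPM. Here UMBO replicate 1 exceeded only vehicle replicate 1. UMBO against vehicle gave a log2 fold change of 1.23 (SE 0.881, edgeR adjusted p = 0.513).

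Klrk1 (ENSMUSG00000030149, chr6:129610323-129623864, minus strand) encodes NKG2D, an activating receptor of NK cells and CD8 T cells that recognises ligands on stressed and tumor cells. It had 55, 160 and 65 counts with vehicle, and 59 and 329 counts with UMBO. UMBO replicate 1 was the lowest library at 0.690 CPM and UMBO replicate 2 the highest at 5.02 CPM, 7.28 times apart. This gave a log2 fold change of 1.13 (SE 0.895, edgeR adjusted p = 0.535).

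Ncr1 (ENSMUSG00000062524, chr7:4337724-4345164, plus strand) encodes NKp46, an activating receptor largely restricted to NK cells and related innate lymphoid cells. Summed over the 5 libraries it had the fewest counts of all members, with 4, 11 and 6 counts with vehicle, and 20 and 31 counts with UMBO. In CPM these were 0.0535, 0.163 and 0.0709 against 0.234 and 0.473. It was the only member whose groups did not overlap, and the lower UMBO library was 1.43 times above the highest vehicle library. Its log2 fold change of 1.64 (SE 0.543) gave the smallest unadjusted p of the members with edgeR, and its adjusted p was 0.497. Ncr1 passed the filter on low counts only through the UMBO libraries, since 1 of 3 vehicle libraries and both UMBO libraries reached the needed 0.122 CPM.

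Klrb1c (ENSMUSG00000030325, chr6:128778485-128789215, minus strand) encodes NK1.1, the antigen by which NK cells of C57BL/6 mice are recognised. It had 5, 21 and 12 counts with vehicle, and 21 and 52 counts with UMBO. UMBO replicate 1 (0.246 CPM) was a little below vehicle replicate 2 (0.312 CPM) and UMBO replicate 2 was at 0.794 CPM. For Klrb1c the log2 fold change was 1.45 (SE 0.707, edgeR adjusted p = 0.497). Exons of Klrb1c overlap those of Gm44511 on the same strand, and 10.8% of its 100-base windows also occur in Gm44511 or Klrb1a, so its counts are uncertain to that extent.

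Ifng (ENSMUSG00000055170, chr10:118441046-118445892, plus strand) encodes interferon-γ, the main macrophage-activating cytokine of these cells. It had 6, 30 and 23 counts with vehicle, and 16 and 42 counts with UMBO. UMBO replicate 1, at 0.187 CPM, was below vehicle replicates 2 and 3 at 0.445 and 0.272 CPM. Its log2 fold change came to 0.59 (SE 0.755, edgeR adjusted p = 0.678). Of its 100-base windows, 12.4% also occur in Gm49751, which overlaps it on the same strand.

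Fasl (ENSMUSG00000000817, chr1:161780689-161788495, minus strand) encodes Fas ligand, which triggers apoptosis through the receptor Fas. It had 33, 46 and 41 counts with vehicle, and 46 and 69 counts with UMBO. The UMBO libraries differed least for this gene among the 10, by 1.96 times, and UMBO replicate 1 (0.538 CPM) lay within the vehicle range of 0.441 to 0.682 CPM. UMBO against vehicle gave a log2 fold change of 0.55 (SE 0.422, edgeR adjusted p = 0.530).

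The log2 fold change of all 10 members was positive and its median was 1.20, while over all genes tested the median was 0.01 and 50.9% were positive. With edgeR, 0 of 10 members passed the adjusted threshold (0% of all genes tested did so in the same direction), and 1, Ncr1, had an unadjusted p under 0.05 against 5.3% of all genes. Without vehicle replicate 1 or 3 the latter count of members was 0, against 194 of 23137 and 217 of 22953 genes higher. Without vehicle replicate 2 it was 4, against 2164 of 23120 genes higher. It was 5 with no filter on low counts, against 2954 of 40435 genes higher. With the replicate number as a block (described below) it was 6, against 3396 of 23592 genes higher. With DESeq2, 0 of 10 passed the adjusted threshold (0.125% of all genes), and Gzma, Gzmb and Ncr1 had an unadjusted p under 0.05 (8.11% of all genes). Both UMBO libraries were above every vehicle library for 1 member, or 1 in 10, against 11.5% of all genes, so the members did not exceed the background. Leaving aside Ncr1 because of the filter, the other 9 members had a median of 1.18.

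The direction rested on UMBO replicate 2. It was the highest library for 10 of 10 members and for 40.4% of all genes tested, and vehicle replicate 1 was the lowest for 8 of 10 members and for 24.0% of all genes. UMBO replicate 1 was above vehicle replicate 1 for 8 members, above vehicle replicate 3 for 6 and above vehicle replicate 2 for 1, Ncr1. Without UMBO replicate 2, the median log2 fold change of the members was -0.03 and 5 of 10 were positive, against 47.5% of all genes. The positive members were Gzmb at 0.29, Prf1 at 0.43, Ncr1 at 1.11, Klrb1c at 0.46 and Fasl at 0.01. The other 5 turned negative, with Gzma at -0.06, Nkg7 at -0.35, Gzmk at -0.37, Ifng at -0.45 and Klrk1 at -0.88. In that comparison 1 member was above all vehicle libraries (18.5% of all genes) and 2, Gzmk and Klrk1, were below them (18.4% of all genes). Without UMBO replicate 1, all 10 members were above every vehicle library (42.5% of all genes) and Gzma passed the adjusted threshold (edgeR adjusted p = 0.0390, with 10.1% of all genes passing in that direction). That p rests on a single UMBO library, the one that stood apart, with the spread taken from the vehicle libraries alone, so it speaks of that library and not of UMBO. Without vehicle replicate 2, which was the highest vehicle library for 9 of 10 members, 6 members were above both remaining vehicle libraries (30.8% of all genes) and 0 were below them (27.6%).

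**Figure D2:**
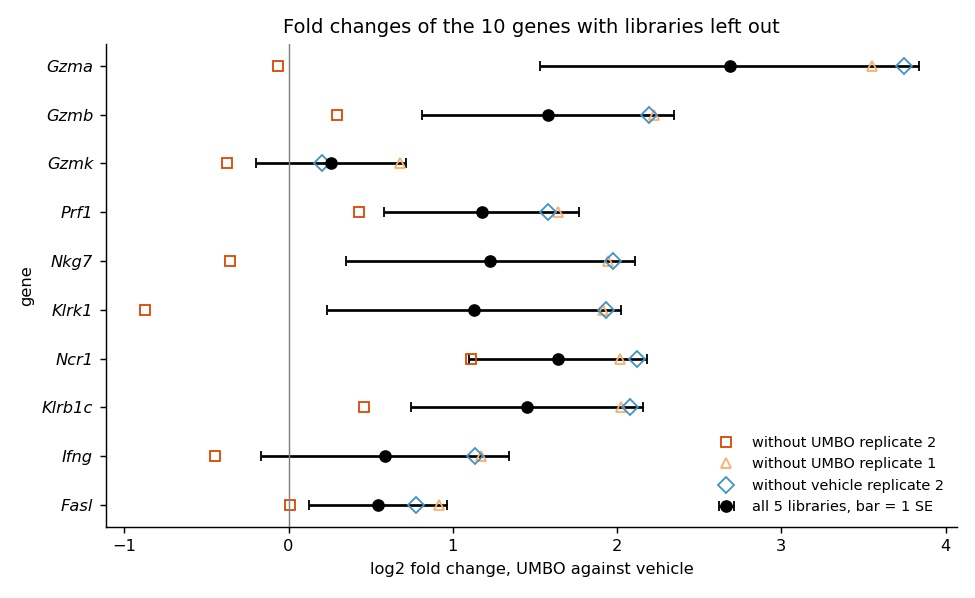
Log2 fold change of UMBO against vehicle (horizontal axis) for the 10 genes (vertical axis), with all 5 libraries (black points, bars 1 SE) and with a library left out (open symbols). The squares, without UMBO replicate 2, lie between -0.88 and 1.11, and 5 of the 10 lie below 0.

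Compared per length of exon sequence (RPKM), the order of mean levels with vehicle was Gzma (2.13 ± 1.95), Gzmb (1.55 ± 1.01), Nkg7 (1.09 ± 0.820), Gzmk (0.321 ± 0.0827), Fasl (0.277 ± 0.0664), Prf1 (0.240 ± 0.124), Ifng (0.205 ± 0.141), Klrk1 (0.180 ± 0.130), Ncr1 (0.0622 ± 0.0383) and Klrb1c (0.0586 ± 0.0423; SD, n = 3 for each). The vehicle ranges of every pair of neighbours in this order overlapped. With UMBO the same genes stood at both ends: Gzma had 2.04 and 25.6 RPKM and Klrb1c 0.0830 and 0.268 RPKM in replicates 1 and 2. Klrk1, whose annotated exons span 7183 bases, the most of any member, was the eighth in this order.

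The members were set against markers of the cells that carry them. T cell receptor chains moved with the same libraries: the summed CPM of Cd3d, Cd3e and Cd3g was 1.39, 7.17 and 3.69 with vehicle, and 2.09 and 14.3 with UMBO. Each member was therefore also divided by this sum, a scaling chosen after the data had been seen. On this scale 4 members, Gzma, Gzmb, Nkg7 and Klrb1c, did not overlap and were higher with UMBO, against 1.92% of all genes tested, and 0 members were lower without overlap (0.335%). All members share the denominator of a library, and the Cd3 sum of UMBO replicate 1 was low, so the 4 are not independent of each other.

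Per unit of Cd3, Gzma was at 0.433, 0.607 and 0.401 with vehicle, and at 0.978 and 1.80 with UMBO. Gzmb was at 0.587, 0.518 and 0.580 with vehicle, and at 1.30 and 0.744 with UMBO. For both granzymes the vehicle libraries were close to each other, unlike on the CPM scale, where vehicle replicates 1 and 2 differed 7.22 times for Gzma and 4.55 times for Gzmb. Nkg7 had 0.221, 0.251 and 0.240 against 0.369 and 0.277, and Klrb1c 0.0481, 0.0435 and 0.0385 against 0.117 and 0.0554. For these 3 of the 4 genes (Gzmb, Nkg7 and Klrb1c) UMBO replicate 1 was the higher UMBO library per Cd3, and for Gzma it was UMBO replicate 2. Prf1 overlapped, with 0.202, 0.128 and 0.179 against 0.402 and 0.142. Klrk1 and Fasl were highest in vehicle replicate 1, at 0.529 and 0.317. Divided instead by Ptprc (CD45, carried by all leukocytes), which was at 8.33, 16.5 and 15.2 CPM against 16.4 and 30.9 CPM, Ncr1 alone among the members had groups that did not overlap, with the UMBO values above, at 0.00642, 0.00991 and 0.00467 against 0.0143 and 0.0153. On that scale 1.48% of all genes were higher without overlap and 25% were lower, with 0 members among the latter. Ncr1 had few counts and passed the filter on low counts only through the UMBO libraries, so its place here supports nothing beyond its values.

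**Figure D3:**
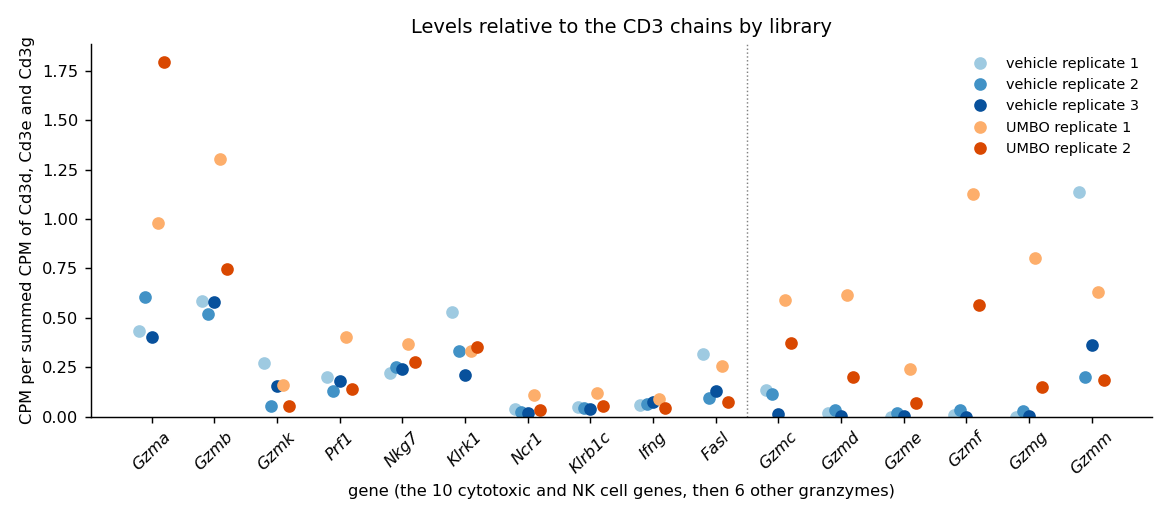
CPM divided by the summed CPM of Cd3d, Cd3e and Cd3g (vertical axis, from 0) for the 10 genes and 6 other granzymes (horizontal axis) in each library. For Gzma the vehicle points lie between 0.401 and 0.607 and the UMBO points at 0.978 and 1.80, while for Klrk1 the UMBO points lie within the vehicle range.

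Of the other granzymes, Gzmd had 2, 16 and 1 counts with vehicle, and 110 and 190 with UMBO. Gzmf had 1, 17 and 0 against 202 and 529, and Gzmg 0, 14 and 1 against 144 and 143. For these genes both UMBO libraries were above every vehicle library, and for Gzmg they had nearly the same count. Gzmc had 14, 56 and 4 counts against 106 and 349, and Gzme 0, 8 and 1 against 43 and 63. These 5 genes lie in a row with Gzmb on chromosome 14 and encode granzymes that mouse lymphocytes make after strong activation. Their log2 fold changes were 3.13 (Gzmc), 4.20 (Gzmd), 3.48 (Gzme), 5.56 (Gzmf) and 4.34 (Gzmg), and each had an unadjusted p under 0.05 but an adjusted p of 0.497 with edgeR. Gzmd and Gzmg passed with DESeq2 (adjusted p = 0.0123 and 0.0293), while Gzmc, Gzme and Gzmf did not (adjusted p = 0.191, 0.125 and 0.285). Without UMBO replicate 2 their log2 fold changes lay between 1.76 and 4.44, all positive, with an edgeR adjusted p of 1.00 for each. Without UMBO replicate 1 all 5 passed (edgeR adjusted p = 0.0390 to 0.0438), again against a single UMBO library. Gzmd, Gzme, Gzmf and Gzmg passed the filter on low counts only through the UMBO libraries and had to differ, so their number supports nothing beyond their values.

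Gzmm, a granzyme encoded outside this row, had 118, 97 and 113 counts against 113 and 172, and Gzmn had a single count in UMBO replicate 2. Reads of the neighbours could be kept apart by sequence: of 100-base windows, 2 were shared by Gzmd and Gzmg, and Gzmb, Gzmc, Gzme and Gzmf shared none with another gene. Gzmb lies at the end of a cluster of 15 protein-coding granzyme and mast cell protease genes between positions 55941451 and 56262260 of chromosome 14, which was looked at after the values were seen. Both UMBO libraries were above every vehicle library for 13 of these 15 genes (11.5% of all genes tested), and Gzmb and Gzmn were the exceptions. Of the 13, 5 were below the filter on low counts, 5 passed it only through the UMBO libraries and had to differ, and 3, Mcpt1, Mcpt2 and Gzmc, passed with 2 or more vehicle libraries, so the count of 13 supports nothing beyond the values. Mcpt1, a mast cell protease toward the other end, had 40, 48 and 41 counts against 204 and 358, and Mcpt2 had 39, 33 and 37 against 136 and 169. Mast cell markers outside the cluster were rare: Cpa3 had 9, 4 and 8 counts against 33 and 21, and Tpsb2 had 4, 10 and 8 against 32 and 54. Whether cells other than lymphocytes gave part of the granzyme counts was not tested.

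**Figure D4:**
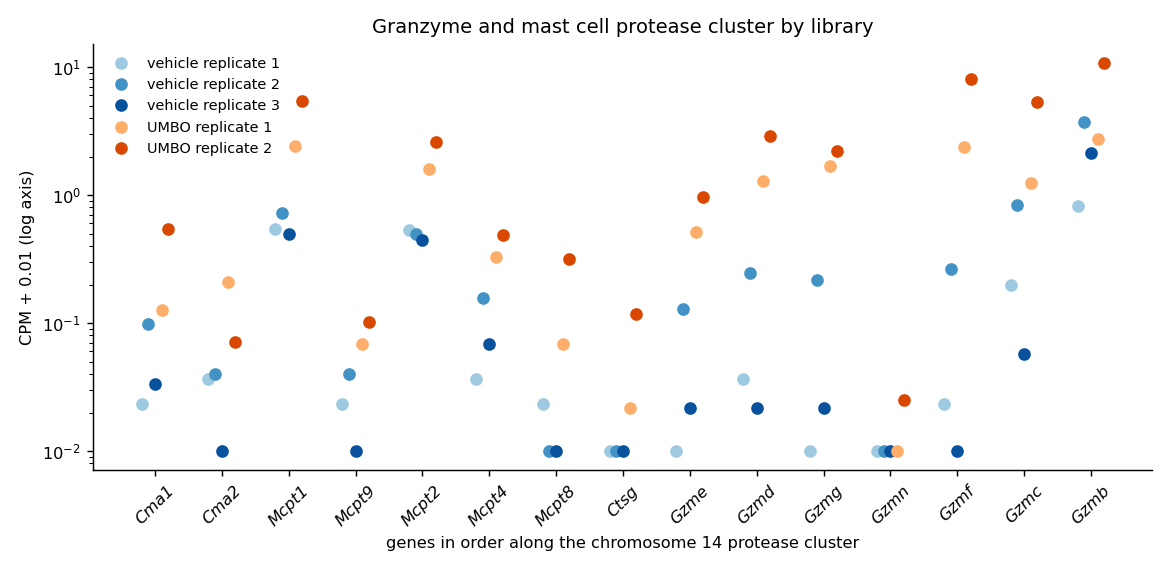
CPM + 0.01 (vertical log axis) of 15 genes in their order along the chromosome 14 cluster (horizontal axis, not to scale) in each library; points at 0.01 are libraries without a count. The UMBO points lie above all vehicle points for every gene but Gzmn and Gzmb, and 10 of these 13 genes were below the filter on low counts or passed it only through the UMBO libraries.

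Of 10 genes that load, move or restrain the granules 9 were higher with UMBO (median log2 fold change 0.84) and 0 passed the adjusted threshold. Ctsc, the protease that activates granzymes, had 15.2, 47.2 and 24.6 CPM against 39.4 and 107 CPM (log2 fold change 1.33, edgeR adjusted p = 0.497). Srgn, the proteoglycan that packs them, had 6.57, 25.3 and 9.69 CPM against 16.0 and 54.6 CPM, and Unc13d, which primes granules for fusion, had 173, 351 and 229 counts against 319 and 844. In these 3 genes, as in Gzma and Gzmb, UMBO replicate 1 lay between vehicle replicates 3 and 2. Serpinb9, the inhibitor of granzyme B, differed little, with 9.70, 13.7 and 12.4 CPM against 12.2 and 13.9 CPM (log2 fold change 0.12). Without UMBO replicate 2 the median of the 10 genes was 0.12.

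Among 24 further NK receptors and adaptors, 20 were tested, of which 6 passed the filter with fewer than 2 vehicle libraries. The other 14 all had higher UMBO values (median log2 fold change 1.24), and 8 of them were higher without UMBO replicate 2 (median 0.04). Klrd1 (CD94) had 0.241, 1.25 and 0.626 CPM against 0.585 and 3.71 CPM, and its partner Klrc1 (NKG2A) had 0.174, 0.608 and 0.579 against 0.316 and 1.85. Hcst, the adaptor through which NKG2D signals, had 0.321, 0.549 and 0.354 CPM against 0.491 and 1.56 CPM (log2 fold change 1.27, edgeR adjusted p = 0.497). Tyrobp, an adaptor that myeloid cells also express, was at 10.6, 34.3 and 14.4 CPM against 35.6 and 102 CPM (log2 fold change 1.80, edgeR adjusted p = 0.497). Klra9, an inhibitory Ly49 receptor, had 0.160, 0.148 and 0.0591 CPM against 0.152 and 0.550 CPM. Il2rb, the receptor chain for interleukin-2 and interleukin-15, had 1.73, 4.66 and 2.32 CPM against 2.60 and 7.45 CPM. In all of these genes but Tyrobp, UMBO replicate 1 stayed within the vehicle range, and in all of them UMBO replicate 2 was above it.

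Ligands of Klrk1, which mark stressed or transformed cells, were tested for 4 of 8 listed genes. Raet1a, Raet1b and Raet1c had no entry under these symbols, and H60c was below the filter on low counts. Ulbp1 had 2.49, 3.50 and 1.23 CPM with vehicle, and 3.37 and 13.8 CPM with UMBO (log2 fold change 1.83, edgeR adjusted p = 0.497). Raet1e had 0.802, 1.93 and 0.307 CPM against 1.17 and 7.77 CPM, and Raet1d 0.254, 1.19 and 0.272 CPM against 0.690 and 4.99 CPM. H60b had 0.709, 0.668 and 0.189 CPM against 0.468 and 0.977 CPM. The groups overlapped for all 4 ligands, and without UMBO replicate 2 their median log2 fold change was 0.24 in place of 1.97.

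Transcription factors of cytotoxic lymphocytes showed no shared direction, with 5 of 8 higher, 3 lower and a median log2 fold change of 0.33. Tbx21 (T-bet) had 0.241, 0.920 and 0.472 CPM against 0.456 and 1.54 CPM, and Runx3, which binds the RUNX motif, had 0.495, 2.27 and 0.898 CPM against 1.12 and 6.11 CPM. Eomes, which some brain cells also express, was nearly even at 1.27, 1.71 and 1.04 CPM against 1.40 and 1.98 CPM. Zfp683 (Hobit), a factor of resident lymphocytes, had 10, 21 and 13 counts against 8 and 3 (log2 fold change -1.21, edgeR adjusted p = 0.497). For this 1 of the 8 genes both UMBO libraries were below every vehicle library, as for 2690 of all 23592 genes tested. Zfp683 passed the filter on low counts only through the vehicle libraries, with 3 vehicle and 0 UMBO libraries reaching it. Its lower value and lack of overlap therefore support nothing beyond its counts. Nfil3, needed for NK cell development, had 8.91, 12.05 and 7.55 CPM against 8.80 and 22.4 CPM.

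Of 12 genes for cytokines that induce Ifng and for their receptors 10 were higher (median log2 fold change 0.52), and without UMBO replicate 2 the median was -0.23. Il15 had 0.923, 2.34 and 1.19 CPM against 1.81 and 3.94 CPM, Il18 had 16.7, 21.2 and 18.6 CPM against 20.4 and 22.1 CPM, and Il12b had 15, 11 and 15 counts against 10 and 37. Il2 had 25, 31 and 23 counts against 41 and 60 (log2 fold change 0.92, edgeR adjusted p = 0.497), and Il18rap, a receptor chain for interleukin-18, had 22, 52 and 29 counts against 42 and 126. Of 12 genes for the Ifng receptor and its direct targets 9 were higher (median 0.84, and -0.13 without UMBO replicate 2). Cxcl9, a chemokine that interferon-γ induces, had the same order of libraries as Ifng, with 3.22, 18.5 and 7.48 CPM against 6.79 and 32.8 CPM, and Irf1 had 15.9, 72.3 and 20.2 CPM against 32.9 and 159 CPM. The receptor chain Ifngr1 had 17.8, 25.4 and 20.3 CPM against 26.2 and 40.4 CPM (log2 fold change 0.65, edgeR adjusted p = 0.497), and Ifngr2 had 52.2, 53.2 and 44.1 CPM against 60.7 and 63.8 CPM. For these 2 of the 12 genes both UMBO libraries were above every vehicle library, as for 11.5% of all genes tested.

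Fas, the receptor of Fas ligand, had 1.14, 2.66 and 2.16 CPM against 2.48 and 5.22 CPM. All 6 genes of its pathway were higher with UMBO (median log2 fold change 0.67) and also without UMBO replicate 2 (median 0.32). Casp8, the caspase that Fas activates, had 3.76, 6.62 and 4.84 CPM against 8.33 and 15.6 CPM (log2 fold change 1.23, SE 0.374, edgeR adjusted p = 0.497). Cflar, an inhibitor of Casp8, had 20.7, 28.6 and 29.5 CPM against 33.0 and 39.4 CPM. Both UMBO libraries were above every vehicle library for 3 of the 6 genes, among them Casp8 and Cflar (11.5% of all genes).

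Markers of some other cells, but not of all, were highest in UMBO replicate 2. Of 14 T cell genes 11 were higher with UMBO and 3 lower (median log2 fold change 0.79). Without UMBO replicate 2, 0 of the 14 were higher (median -0.82), against 47.5% of all genes tested in that setting. Of the members 5 of 10 were higher there, or 4 of 9 leaving aside Ncr1 because of the filter, near the share of all genes. The summed CPM of the T cell genes was 33.6, 48.5 and 28.3 with vehicle, and 18.7 and 67.8 with UMBO. Vehicle replicate 1, the lowest library for the sum of Cd3d, Cd3e and Cd3g at 1.39 CPM, was not the lowest here. Cd4 alone held 14.6 CPM of its sum, and which cells gave the Cd4 counts was not tested. Cd3e had 0.669, 3.16 and 1.56 CPM against 0.983 and 5.74 CPM and Cd8a 0.441, 2.02 and 2.62 CPM against 0.971 and 4.76 CPM, whereas Cd4 was at 14.6, 14 and 7.31 CPM against 4.56 and 8.31 CPM (log2 fold change -0.89, edgeR adjusted p = 0.497). Foxp3, the factor of regulatory T cells, had 20, 26 and 14 counts against 19 and 64. The 6 NK cell markers Ncr1, Klrb1c, Eomes, Klra8, Klre1 and Klri2 all had counts in every library. Together they summed to 1.79, 3.78 and 1.91 CPM with vehicle, and 2.73 and 6.28 CPM with UMBO. Without Eomes, which some brain cells also express, they summed to 0.522, 2.08 and 0.874 CPM with vehicle, and 1.32 and 4.29 CPM with UMBO. Ncr1 and Klrb1c are themselves members, so these sums are not separate from the members.

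All 10 monocyte and macrophage genes were higher (median log2 fold change 2.22, and 0.17 without UMBO replicate 2), with a summed CPM of 110 to 244 with vehicle, and 223 and 590 with UMBO. All 10 proliferation genes were also higher (median 2.22, and 0.86 without UMBO replicate 2), with 34.2 to 107 CPM against 113 and 484 CPM. For 5 red blood cell genes the sum was 71.8, 147 and 165 CPM against 181 and 217 CPM, so that vehicle replicate 1, the library with the least of most members, also had the least of these. The 6 neuron genes summed to 7330, 4680 and 4614 CPM against 4855 and 2272 CPM, and UMBO replicate 2 had the least. Of the remaining lists, the median log2 fold change was 0.99 for 6 leukocyte genes, 1.00 for 4 regulatory T cell genes, 0.68 for 6 B cell genes and 0.46 for 8 microglia genes. The B cell genes summed to 38.8, 43.6 and 24.1 CPM against 27.7 and 31.5 CPM, within the vehicle range in both UMBO libraries. The microglia genes summed to 179, 218 and 212 CPM against 328 and 303 CPM, with UMBO replicate 1 the highest, and among them Fcrls differed most, at 16.0, 16.9 and 17.4 CPM against 51.3 and 50.4 CPM. Gamma delta T cell (3 genes, median 0.44) and neutrophil genes (2 genes, median 2.01) that passed the filter with 2 or more vehicle libraries were few. No gene of the mast cell and basophil list passed in that way, while the mast cell proteases Mcpt1 and Mcpt2, outside that list, did. Il17a had a single count, in UMBO replicate 2. In each of these lists 0 genes passed the adjusted threshold with edgeR. What part these cells had in the levels of the 10 members was not tested.

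**Figure D5:**
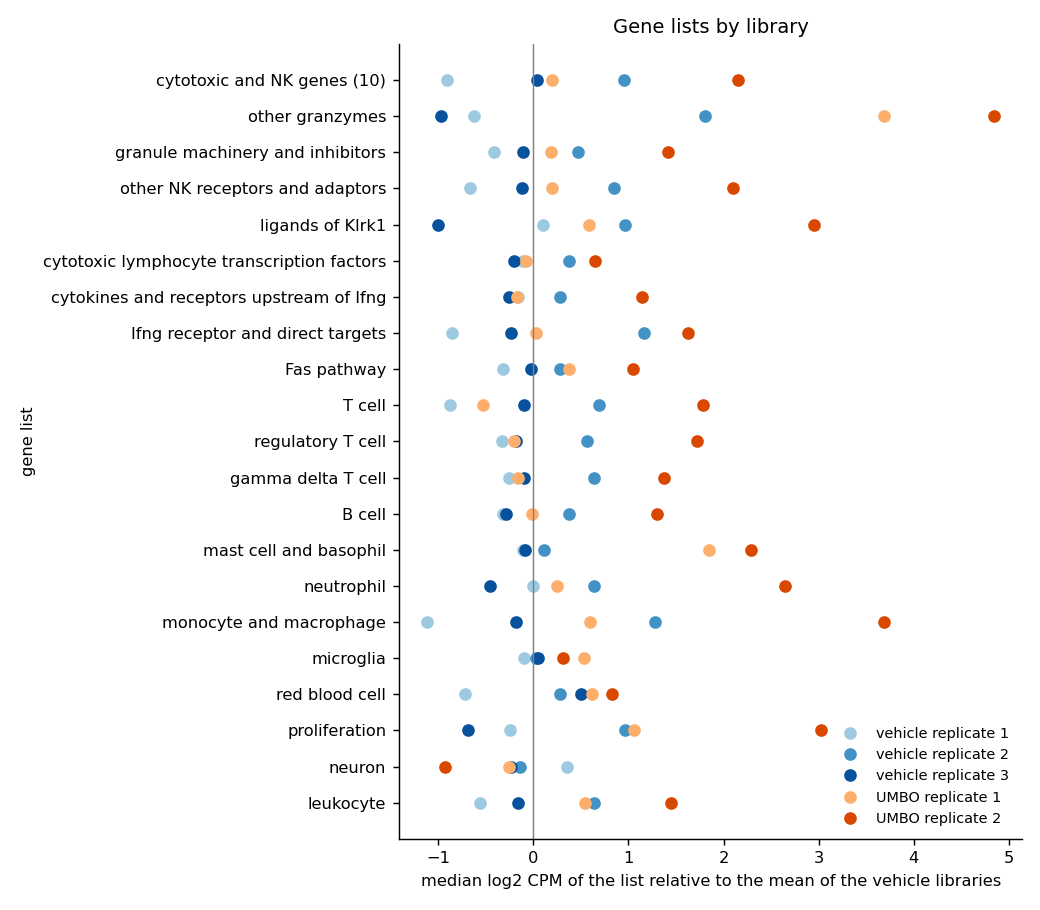
Median log2 CPM of each gene list (vertical axis) in each library, relative to the mean of the vehicle libraries (horizontal axis, log2 units); points are libraries. For the 10 cytotoxic and NK genes the vehicle libraries lie from -0.91 to 0.96 and the UMBO libraries at 0.20 and 2.15, and for the other granzymes the vehicle libraries lie from -0.97 to 1.81 and the UMBO libraries at 3.69 and 4.85. Of those 6 granzymes 4 passed the filter on low counts only through the UMBO libraries, and the other 2 had a median log2 fold change of 1.78, or 0.81 without UMBO replicate 2.

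The genes whose pattern was most like the mean pattern of the members were Cd36, Nfkb2, Cd247, Tnfsf9 and Arhgap9. Likeness was the root mean square distance between centred log2 CPM over the 5 libraries, among 15105 protein-coding genes with a mean of at least 0.5 CPM. The distance was 0.0620 for Cd36, a scavenger receptor, and 0.105 to 0.116 for the other 4 genes. Cd36 had 2.22, 6.90 and 3.66 CPM with vehicle, and 4.41 and 14.6 CPM with UMBO. Cd247, the zeta chain of the T cell receptor, had 0.374, 1.19 and 0.673 CPM against 0.655 and 2.50 CPM. In all 5, as in the mean of the members, vehicle replicate 1 was lowest and UMBO replicate 2 highest. Among the members themselves Klrb1c (0.189), Prf1 (0.222) and Gzmb (0.271) were nearest to the mean pattern, and Gzma (0.857) and Gzmk (0.746) were farthest from it, Gzma with a wider and Gzmk with a narrower range.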

How the data were processed

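Bulk RNA of the right hemisphere was sequenced from 3 vehicle and 2 UMBO mice, grouped by the labels. The authors mapped the reads with STAR 2.7.2a to GRCm38 and deposited raw counts per Ensembl gene. The annotation release and the strand setting are not given in the sources used here. Symbols and exon lengths were taken from GENCODE M21, with symbols for 55480 of 55573 genes. Genes without a symbol held at most 0.002% of a library's counts. Genes were filtered with filterByExpr (minimum count 10), scaled by TMM and tested with edgeR 4.0.16 (quasi-likelihood, prior count 2 for fold changes, Benjamini-Hochberg adjustment over 23592 genes, R 4.3.3). DESeq2 1.42.0, other scalings and filters, a replicate block and leaving out each library were alternatives. The edgeR fit was also run on simulated data, with a pass condition set only at a dispersion below the common value of 0.118 in these data. That run checks the code and not the power of 3 against 2 libraries. The depth of 59736771 to 86164159 counts leaves counting error small beside the spread between mice, except for genes with few counts such as Ncr1. Members and gene lists were chosen with earlier results of these data known. Besides all members, genes named were fixed marker and pathway genes and up to 3 genes of smallest p per list, plus the 5 genes most like the members. Gzme, Gzmn, Il17a and the other genes of the protease cluster were named after their values were seen.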

Additional observations from a re-analysis of the deposited data

How the results depend on the processing

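The count of genes past the adjusted threshold, 0 with edgeR, was 42 with the DESeq2 Wald test (29 higher, 13 lower). With a library left out it ranged from 0 to 4543, the highest without UMBO replicate 1 (2507 higher, 2036 lower). Members past the threshold ranged from 0 to 1 with a library left out, and the 1 was Gzma without UMBO replicate 1, a fit in which the lone UMBO library is assumed to vary like the vehicle libraries. Members whose groups did not overlap ranged from 1 to 10 with a library left out, were 4 per unit of Cd3, 1 per unit of Ptprc (both added after the data had been seen), and 0 with a mean of at least 1 CPM, which left 4 members to test. The median log2 fold change of the members ranged from -0.027 to 1.95 with a library left out and turned negative only without UMBO replicate 2. Leaving out that library also turned 5 members, whose log2 fold changes with a library left out ranged from -0.063 to 3.75 (Gzma), -0.37 to 0.68 (Gzmk), -0.35 to 1.97 (Nkg7), -0.88 to 1.93 (Klrk1) and -0.45 to 1.17 (Ifng). The other settings run changed the scaling, filter, prior count or test. Where all 10 members were tested in them, the median of the members stayed between 1.17 and 1.32. With a mean of at least 1 CPM it was 1.46, over the 4 members left to test. Scaling by library size alone shifted the median of all genes from 0.01 to 0.12 and the genes at an unadjusted p under 0.05 to 1502 higher and 395 lower.

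Replicate numbers are shared by vehicle and UMBO replicates 1 and 2, but no source says that a number pairs mice, and only 2 pairs exist. With the replicate number as a block, 2337 genes passed (1428 higher, 909 lower) of 23592 tested, among them 4 members: Gzma (edgeR adjusted p = 5.98e-04), Gzmb (0.00386), Prf1 (0.0418) and Nkg7 (0.0434). The deviations of same-numbered libraries from their group means correlated at 0.453 and 0.760. The deviations of the 2 UMBO libraries mirror each other, so these values are not separate. All pairs of libraries were also compared by chi-square per gene of their counts, which is lower for libraries more alike. For UMBO replicate 1 it was 122, 56.0 and 77.2 against vehicle replicates 1, 2 and 3. For UMBO replicate 2 it was 705, 292 and 671. Both UMBO libraries were thus nearest to vehicle replicate 2, whatever their number. Whether numbers pair mice was not tested further. With all 5 libraries and no block these members hold no call. Gzmc, Gzmd, Gzme, Gzmf and Gzmg also passed with the block (edgeR adjusted p = 1.09e-04 to 0.00291). The cause of the difference was not tested.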
